A study of Homo sapiens with 7 samples.

Results

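The matrix metalloproteinases and their tissue inhibitors were examined in MCF-10A, a line of human mammary epithelial cells that is not transformed, in which Brit1, a gene of homologous recombination, had been targeted by a hairpin. The genes were taken by name: 7 metalloproteinases (MMP1, MMP2, MMP3, MMP7, MMP9, MMP10 and MMP14) and 3 inhibitors (TIMP1, TIMP2 and TIMP3). All 10 were on the array, of 19304 named genes in all, with 12 of its 48701 probes. Of these, 8 genes and 9 probes passed detection (p-value below 0.05 against negative controls) on 3 or more arrays and were tested, and MMP2 and MMP3 were too dim for that. The shBrit1 cells carried the hairpin against Brit1 and the shControl cells a scrambled hairpin, both brought in by lentiviral particles and kept as stable lines in MCF-10A medium. Cells of both groups were harvested 48 h after seeding, and their RNA was run on 1-colour bead arrays, 4 for shBrit1 and 3 for shControl, which the submitters call biological replicates. The labels give neither the hairpin's sequence nor whether a line was 1 clone or a pool, and nothing says that arrays of a group came from separately made lines, so p-values measure only the spread between these samples. Brit1 itself was not analysed here, and the groups are as labelled.

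Matrix metalloproteinases are zinc-dependent enzymes that are made as inactive precursors and, once activated, cut collagens, laminins, other matrix proteins and growth factor precursors outside the cell. TIMPs bind to the active site of these enzymes and block it. In the mammary gland the family takes part in the remodelling of ducts and basement membrane, and many members are transcribed in response to growth factors and inflammatory cytokines through AP-1 and ETS factors.

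In shBrit1 cells MMP7 and TIMP2 were called higher and MMP10 and MMP1 lower (limma with Benjamini-Hochberg adjustment over 17967 probes, adjusted p under 0.05). MMP9, MMP14, TIMP1 and TIMP3 did not pass the test. Thus 2 of the 8 tested members were higher and 2 lower, in a comparison in which 29.5% of the 12372 genes tested were higher and 30.1% lower, so the share of members called was no larger than that of all genes. The groups did not overlap for 5 of the 8 members, against 61.8% of all genes tested. MMP10, MMP1 and MMP9 were detected on every shControl array and no shBrit1 array. They passed the detection filter only through shControl, where they were high, so their selection was tied to the direction found. Fitted by limma without that filter, MMP10 kept its call (adjusted p = 0.01823) and MMP1 did not (adjusted p = 0.1482). The median log2 difference of the 8 members was -0.17, beside -0.0084 over all genes, and its sign turned when shControl replicate 3 was left out (0.03, beside 0.0012 over all genes). Signals are given as normalized log2 values, where 1 unit is a doubling, and levels of different genes cannot be set against each other because each probe has its own brightness. In RNA from whole cultures, fewer cells that express a gene and less RNA per cell cannot be told apart.

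The promoters of MMP7 and MMP10 are shown because these were the called members with the largest positive and the largest negative log2 difference, and because both genes lie in the metalloproteinase cluster of chromosome 11. Each line gives the 250 bases before the RefSeq start of the gene on GRCh38.p14, 5′ to 3′ on the minus strand (chr11:102530748-102530997 for MMP7 and chr11:102780629-102780878 for MMP10), with every match to a searched motif in capitals.
MMP7: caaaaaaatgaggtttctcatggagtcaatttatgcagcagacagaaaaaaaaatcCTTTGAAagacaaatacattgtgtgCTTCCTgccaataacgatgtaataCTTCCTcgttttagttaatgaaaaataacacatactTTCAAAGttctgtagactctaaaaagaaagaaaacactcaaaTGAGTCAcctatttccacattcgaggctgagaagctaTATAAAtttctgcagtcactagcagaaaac
MMP10: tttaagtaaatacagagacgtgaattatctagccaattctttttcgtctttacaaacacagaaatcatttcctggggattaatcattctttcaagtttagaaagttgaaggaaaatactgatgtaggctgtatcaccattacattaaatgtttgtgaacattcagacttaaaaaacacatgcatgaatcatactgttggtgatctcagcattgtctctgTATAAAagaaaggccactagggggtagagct
The motifs were AP-1 (TGAGTCA), the TATA box (TATAAA), ETS (AGGAAG) and TCF/LEF (CTTTGAA or CTTTGAT), each read on both strands, and no match overlapped another. MMP7 held all 4 motifs, with an AP-1 match 67 to 61 bases and a TATA box 30 to 25 bases before the start, ETS matches on the opposite strand at 169 to 164 and 145 to 140 bases, and TCF/LEF matches at 194 to 188 bases and, on the opposite strand, at 109 to 103 bases. MMP10 held a TATA box at 31 to 26 bases and none of the other 3 motifs in these letters. Over 35116 RefSeq promoters of the same length, 4.20% held the AP-1 letters, 10.7% the TATA box, 28.7% the ETS letters and 5.94% a TCF/LEF version. Of the 10 members 5 had an entry in the promoter table, and of the other 3, TIMP1 held an ETS match at 87 to 82 bases while MMP14 and TIMP3 held no match in this window. A match is a run of letters and was not tested as a binding site.

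1 array stood apart and bears on most members. shControl replicate 3 differed from shControl replicates 1 and 2 with an SD of 0.531 and 0.510 log2 over the tested probes, against 0.192 between those 2 arrays and 0.161 to 0.228 between shBrit1 arrays. The submitters' sample descriptions of shControl replicates 1 and 2 end in the same letter and that of replicate 3 does not, but the labels do not say what it stands for. Member results are therefore given with and without this array, and those of the other genes named where leaving it out changed a call or moved a value by over 1.5 times. Without it 34.4% of all genes were higher and 34.8% lower in shBrit1 cells, and of the 8 members 2 were higher and 3 lower. The 3 lower were MMP10, MMP1 and MMP9. That fit kept the probes chosen on all 7 arrays, so these genes entered it only through shControl arrays, including replicate 3. Their selection in this fit was thus also tied to the direction found, and a filter on the remaining arrays alone was not applied. The 8 mammary epithelial markers on the array (KRT5, KRT14, KRT8, KRT18, CDH1, EPCAM, ITGB4 and LAMB3) were detected on every array.

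MMP7, or matrilysin, is a small secreted enzyme of epithelial cells that lacks the hemopexin domain of most of the family. Its normalized signal was 11.75, 11.82, 11.65 and 11.82 on the shBrit1 arrays, against 7.45, 7.52 and 6.69 on the shControl arrays. Every shBrit1 array lay far above every shControl array, and here shControl replicate 3 was the lowest rather than the highest control. The means were 11.76 ± 0.08 in shBrit1 cells (SD, n = 4) and 7.22 ± 0.46 in shControl cells (SD, n = 3), a log2 difference of 4.54 with a standard error of 0.19, or 23.2-fold (limma, adjusted p = 3.87e-07). MMP7 was detected on all 7 arrays, and the deposited signals before normalization ran from 3023 to 3655 in shBrit1 cells and from 155 to 260 in shControl cells. Without shControl replicate 3 the difference was 4.27. Counting MMP7 itself, 10 of the 12372 genes (0.0808%) had a difference of at least this size with no overlap between the groups.

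**Figure D1:**
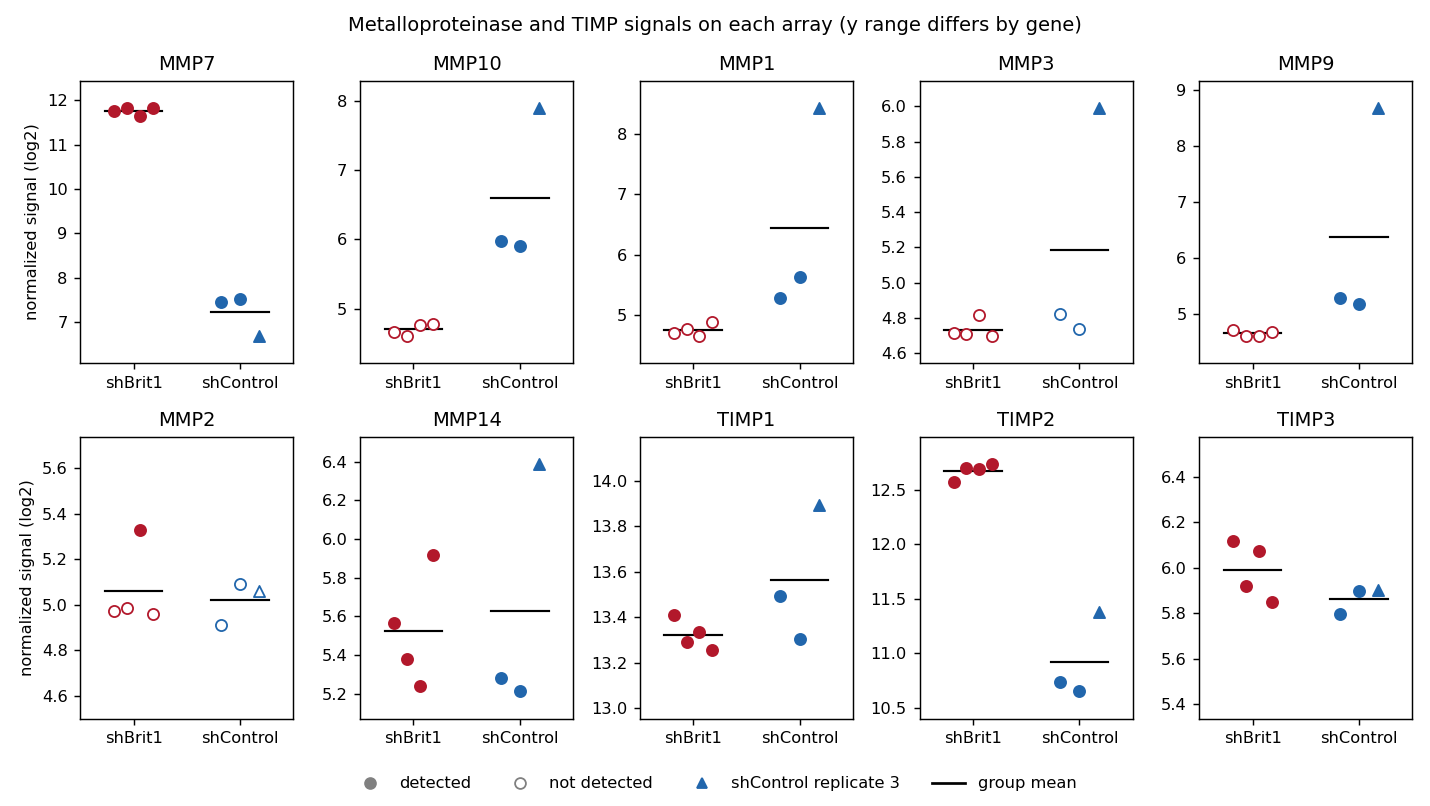
Normalized log2 signal (y axis, range set for each gene) of the 10 members on each array, with shBrit1 left and shControl right, filled symbols for detected and open symbols for undetected signals, a triangle for shControl replicate 3 and a bar for the group mean. MMP7 and TIMP2 lay higher on all 4 shBrit1 arrays, while MMP10, MMP1 and MMP9 were undetected on them and highest on shControl replicate 3.

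MMP10, MMP1 and MMP3 are the secreted stromelysins and interstitial collagenase that lie side by side on chromosome 11. MMP10 (stromelysin-2, which cuts non-fibrillar matrix proteins and can activate collagenases) had 4.67, 4.61, 4.76 and 4.79 on the shBrit1 arrays, against 5.98, 5.91 and 7.89 on the shControl arrays. It was undetected on all 4 shBrit1 arrays and detected on all 3 shControl arrays. A group in which a gene was undetected has only a bound, taken from the dimmest detected probe of each array or the gene's own signal, whichever is higher. By that bound MMP10 was at least 2.81-fold lower in shBrit1 cells (measured log2 difference -1.89, adjusted p = 0.004563). Without shControl replicate 3 it was at least 1.79-fold lower (log2 -1.24, adjusted p = 3.44e-07).

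MMP1, the collagenase that cuts fibrillar collagen, had 4.70, 4.76, 4.65 and 4.89 on the shBrit1 arrays, against 5.29, 5.63 and 8.42 on the shControl arrays. Like MMP10 it was undetected on every shBrit1 array, and shControl replicate 3 lay 2.96 log2 above the mean of the other 2 controls. The means were 4.75 ± 0.10 in shBrit1 cells (SD, n = 4) and 6.45 ± 1.72 in shControl cells (SD, n = 3). MMP1 was at least 2.54-fold lower in shBrit1 cells, at the edge of the test (log2 -1.70, standard error 0.64, adjusted p = 0.04928). Without shControl replicate 3 it was at least 1.28-fold lower (log2 -0.71, adjusted p = 0.000203). Leaving out any 1 of the shBrit1 arrays ended the call, with adjusted p from 0.0868 to 0.1077, and so did 6 of the other settings.

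MMP3 (stromelysin-1) had 4.71, 4.71, 4.82 and 4.70 on the shBrit1 arrays, against 4.82, 4.74 and 5.99 on the shControl arrays. It was detected on shControl replicate 3 alone and so was not tested. Fitted without the filter on dim probes it did not pass the test (adjusted p = 0.3971). The RefSeq order of the cluster on chromosome 11 is MMP7, MMP20, MMP27, MMP8, MMP10, MMP1, MMP3, MMP12 and MMP13. Of these 9 genes only MMP7, MMP10 and MMP1 were detected on enough arrays to be tested. MMP7 was called higher and MMP10 and MMP1 lower, the last 2 having been detected on shControl arrays alone. MMP20, MMP27 and MMP13 were undetected on every array, MMP8 was detected on 1 shBrit1 array, and MMP12 on 1 shControl array.

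The gelatinases MMP9 and MMP2 cut denatured collagen and the type IV collagen of basement membranes. MMP9 had 4.72, 4.61, 4.61 and 4.68 on the shBrit1 arrays, against 5.28, 5.18 and 8.68 on the shControl arrays. It was undetected on all 4 shBrit1 arrays and detected on all 3 shControl arrays, so the groups did not overlap, but shControl replicate 3 lay 3.45 log2 above the other 2 controls. With all arrays the difference did not pass the test (log2 -1.72, adjusted p = 0.07666, the bound being 2.42-fold). Without shControl replicate 3 it did, and MMP9 was at least 1.09-fold lower in shBrit1 cells (log2 -0.58, adjusted p = 0.000122). Its entry in that fit rested in part on its detection on the array left out. MMP2 ran from 4.96 to 5.33 in shBrit1 cells and from 4.91 to 5.09 in shControl cells. It was detected on 1 array, shBrit1 replicate 3, and was not tested. Fitted without the filter it had a log2 difference of 0.04 (adjusted p = 0.882).

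MMP14 is the membrane-anchored enzyme that activates the MMP2 precursor, with TIMP2 as the bridge between both. Its signal was 5.57, 5.38, 5.24 and 5.92 on the shBrit1 arrays, against 5.28, 5.21 and 6.39 on the shControl arrays. The groups overlapped, with shControl replicate 3 highest. The log2 difference was -0.10 (95% confidence interval -0.75 to 0.55, adjusted p = 0.7909). Without shControl replicate 3 the sign turned, to 0.28 (95% confidence interval -0.07 to 0.62, adjusted p = 0.143).

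**Figure D2:**
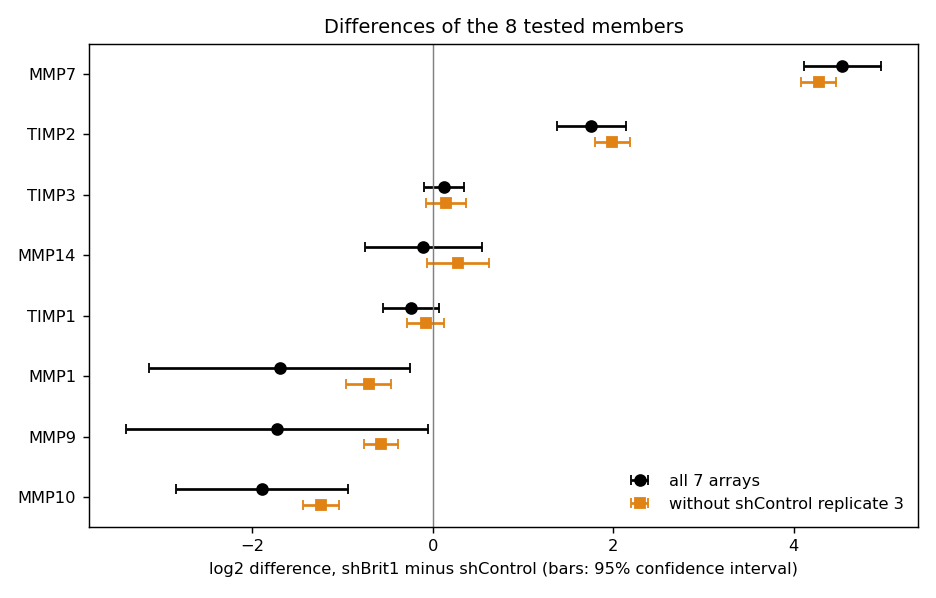
Log2 difference, shBrit1 minus shControl (x axis), of the 8 tested members, as points with 95% confidence intervals from limma, for all 7 arrays (circles) and without shControl replicate 3 (squares). MMP7 and TIMP2 lay above 0 and MMP10 and MMP1 below 0 in both fits, while MMP9 passed the test in the second fit and MMP14 changed sign.

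TIMP2, a secreted inhibitor that also takes part in the activation of MMP2, was the only member inhibitor called higher in shBrit1 cells. Its brightest probe had 12.57, 12.70, 12.70 and 12.74 on the shBrit1 arrays, against 10.73, 10.65 and 11.38 on the shControl arrays. All shBrit1 arrays lay above all shControl arrays and within a narrow range. The log2 difference was 1.76 with a standard error of 0.17, or 3.38-fold (adjusted p = 3.26e-05), and 1.99 without shControl replicate 3. A second TIMP2 probe had 7.49, 6.73, 7.09 and 7.04 on the shBrit1 arrays, against 5.89, 6.01 and 6.15 on the shControl arrays. It moved in the same direction with a smaller size, 2.10-fold (log2 1.07, adjusted p = 0.000604). The last of the 3 TIMP2 probes was undetected on every array.

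TIMP1, a secreted inhibitor of most metalloproteinases, had 13.41, 13.29, 13.34 and 13.25 on the shBrit1 arrays, against 13.49, 13.31 and 13.89 on the shControl arrays. The groups overlapped, and the log2 difference of -0.24 did not pass the test (95% confidence interval -0.55 to 0.07, adjusted p = 0.1705). With median scaling in place of quantile normalization it did (log2 -0.33, adjusted p = 0.03997). That scaling moved the median difference of all genes to -0.15. TIMP1 had a log2 difference of -0.08 without shControl replicate 3 (limma, adjusted p = 0.4957). TIMP3, which is held in the matrix and inhibits ADAM proteases too, ran from 5.85 to 6.12 in shBrit1 cells and from 5.80 to 5.90 in shControl cells. Its log2 difference was 0.13 (95% confidence interval -0.09 to 0.35, adjusted p = 0.3083), and 0.15 without shControl replicate 3 (adjusted p = 0.2322).

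The spread among the controls was shared by several members. On shControl replicate 3, 4 of the 8 tested members lay at least 1 log2 above the mean of the other 2 controls (MMP9, MMP1, MMP10 and MMP14), against 2.80% of all genes tested. Among the 8, shControl replicate 3 was the highest control for 7, and it was the lowest for MMP7, by 0.79 log2. The inducing cytokines IL1B and IL1A lay 3.62 and 2.77 log2 higher on that array than on the other 2 controls. TNF was detected on 1 of 4 shBrit1 arrays, and among the shControl arrays on replicate 3 alone. What set this array apart was not tested.

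**Figure D3:**
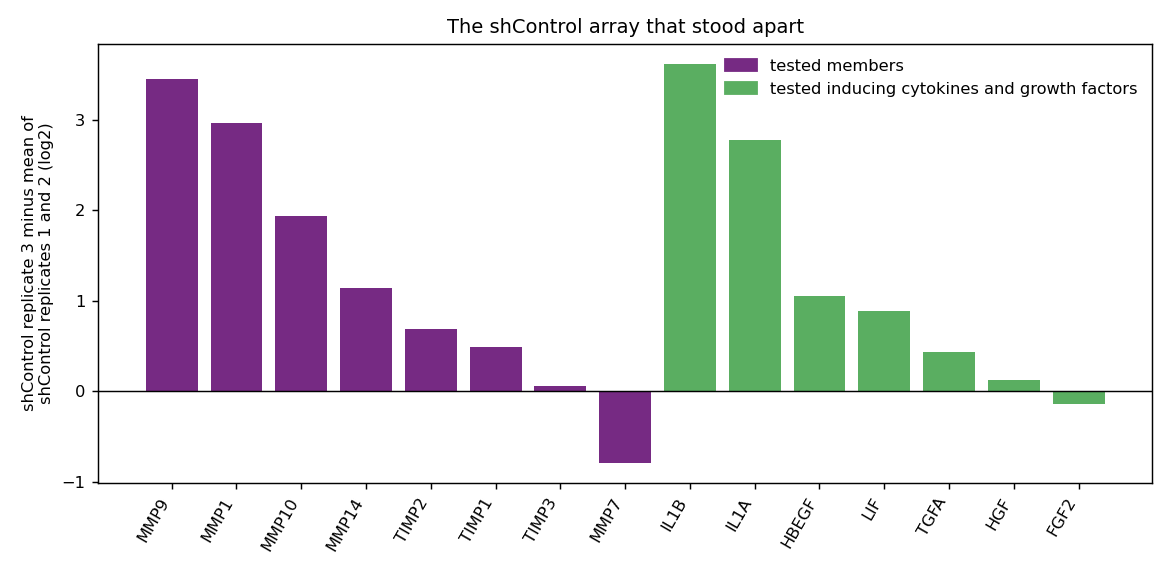
Difference of shControl replicate 3 from the mean of shControl replicates 1 and 2 (y axis, log2) for the 8 tested members and the 7 tested inducing cytokines and growth factors, 1 bar a gene. MMP9, MMP1, MMP10, IL1B and IL1A stood highest and MMP7 lowest, at -0.79.

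Other genes of the pathway were read from lists of 120 genes, of which 71 were tested. Of these 20 were higher and 23 lower in shBrit1 cells, shares close to the 29.5% and 30.1% of all genes. Leaving out shControl replicate 3 gave 23 higher and 26 lower. With median scaling 10 were higher and 26 lower, while 21.2% of all genes were higher and 36.2% lower.

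Of the other matrix metalloproteinases 4 of 15 were bright enough to test, 3 of them higher and 0 lower in shBrit1 cells, with a median log2 difference of 0.35. MMP28 (epilysin, an epithelial enzyme) was 2.54-fold higher by its brightest probe (log2 1.35, adjusted p = 3.64e-05). MMP15, a membrane-anchored enzyme, was higher by 0.46 log2 (adjusted p = 0.01213). MMP23B, higher by 0.24 log2 (adjusted p = 0.04432), lost its call under most other settings. MMP25 had a log2 difference of 0.09 (adjusted p = 0.5838), and of 0.15 without shControl replicate 3 (adjusted p = 0.2949). Of the other inhibitors, RECK, a membrane-anchored inhibitor of metalloproteinases, was undetected on every shControl array. It was at least 2.15-fold higher in shBrit1 cells (log2 1.23, adjusted p = 5.65e-05). RECK passed the detection filter only through shBrit1, where it was high, so its selection was tied to the direction found. Fitted by limma without that filter it kept its call (adjusted p = 0.000148). TIMP4 had a log2 difference of 0.13 (adjusted p = 0.3672).

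The ADAM and ADAMTS proteases, relatives that shed membrane proteins or cut proteoglycans, were higher for 2 and lower for 4 of 13 tested. Their median log2 difference was -0.07, or -0.12 without shControl replicate 3. Under median scaling 0 were higher and 4 lower. ADAM19 was 7.43-fold lower in shBrit1 cells (log2 -2.89). ADAMTS6 had a log2 difference of -2.40 and was detected on 1 of the 4 shBrit1 arrays. ADAM8 was lower by a log2 difference of -1.57, and of -1.04 without shControl replicate 3. ADAM23 was higher by 0.41 log2 (adjusted p = 0.0175). It lost its call under 5 of 18 other settings, among them median scaling (limma, log2 0.36, adjusted p = 0.06046).

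The proteases that activate metalloproteinase precursors, with their receptor and serpins, were lower for 6 and higher for 1 of 7 tested, with a median log2 difference of -0.80. SERPINE2, a serpin that blocks thrombin and urokinase, was 6.29-fold lower in shBrit1 cells (log2 -2.65). PLAUR, the urokinase receptor, had a log2 difference of -1.29. PCSK7, a proprotein convertase, had -0.70, and ST14 (matriptase) had -0.60.

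Among 17 transcription factors known to act on metalloproteinase promoters, 6 were higher and 6 lower (7 lower without shControl replicate 3), with a median log2 difference of -0.14. FOSL1, an AP-1 subunit, was 6.88-fold lower in shBrit1 cells (log2 -2.78). The other AP-1 subunits were mixed. FOS, FOSL2 and JUND were called higher (log2 0.56, 0.46 and 0.45). JUN was called lower (log2 -0.89, or -0.59 without shControl replicate 3). FOSB did not pass the test (log2 -0.66, or -0.16 without that array), and JUNB was too dim to test. The ETS factors ETV5 and ETV4 were lower, with log2 differences of -2.49 and -1.65, while ETS2 was 3.99-fold higher (log2 2.00). Under median scaling 1 of the 17, ETS2, was higher and 7 were lower. Of the inducing cytokines and growth factors 3 of 7 tested were lower and 0 higher (median log2 difference -1.27), and without shControl replicate 3 it was 4 lower and 0 higher (median -0.28). TGFA, HBEGF and LIF had log2 differences of -1.66, -1.48 and -1.27. IL1B did not pass the test with all arrays (log2 -1.48, adjusted p = 0.1375) and did without shControl replicate 3, at a smaller size (log2 -0.28, adjusted p = 0.03101).

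The surface and secreted partners were higher for 4 and lower for 2 of 11, with a median log2 difference of 0.19, or -0.15 under median scaling. Leaving out shControl replicate 3 gave 6 higher and 3 lower (median 0.32). LRP1, the endocytic receptor that clears metalloproteinases and their TIMP complexes, was undetected on every shControl array and at least 3.58-fold higher in shBrit1 cells (log2 2.18). Like RECK it passed the detection filter only through shBrit1. Fitted by limma without that filter it kept its call (adjusted p = 5.17e-07). The collagen receptor subunits ITGA2 and ITGB1 had log2 differences of -1.53 and -0.56, and ITGB3 had 0.73. Of the matrix substrates 3 were higher and 2 lower of 10 (median log2 difference -0.05), and without shControl replicate 3 it was 4 higher and 2 lower (median 0.15). DCN, the proteoglycan decorin, was 56.5-fold higher in shBrit1 cells by its brightest probe (log2 5.82). Its other probes were also called higher but were undetected on every shControl array. Their rise therefore has only a lower bound, 25.0-fold for the brighter and 1.13-fold for the dimmer probe. COL1A1 was 2.16-fold higher (log2 1.11), and the basement membrane collagens COL4A1 and COL4A2 were lower (log2 -1.73 and -1.27).

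**Figure D4:**
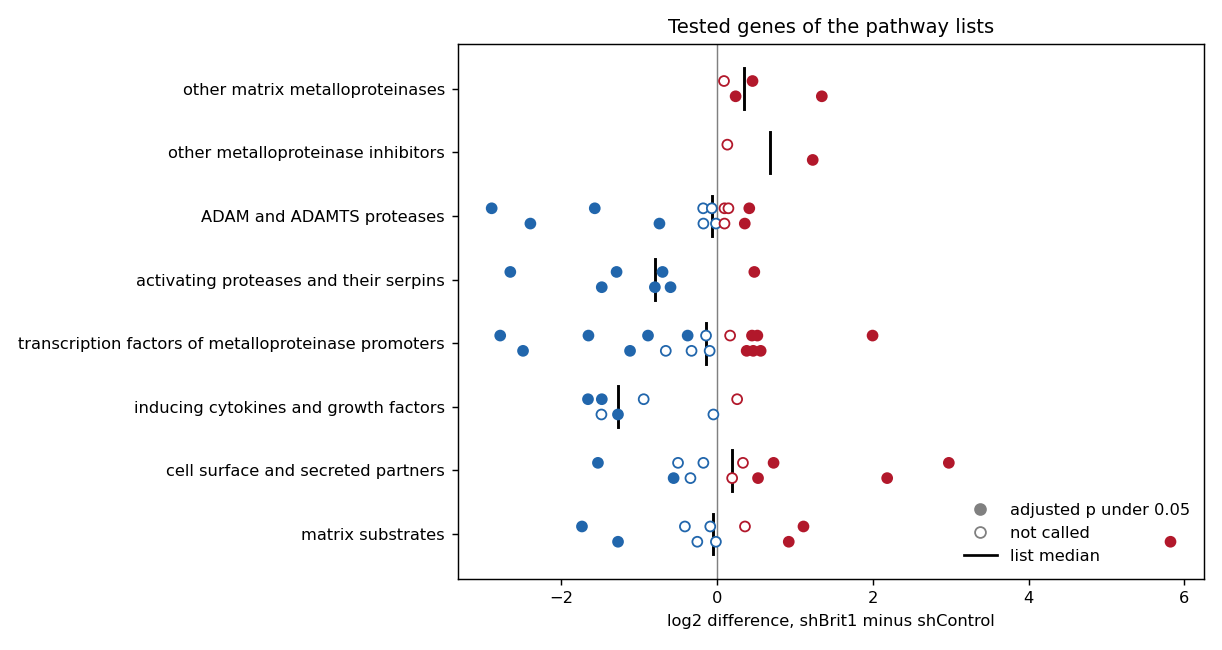
Log2 difference, shBrit1 minus shControl (x axis), of each tested gene in 8 lists of pathway genes, filled where limma's adjusted p was under 0.05 and open where not, with a bar for the list median. The activating proteases and their serpins lay mostly below 0, and DCN stood farthest above it, at 5.82.

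Some markers of other cell types differed between the groups beside these genes, and others did not or were undetected. Of the 10 fibroblast markers 4 were higher and 1 lower of 5 tested, and their summed linear signal ran from 8004 to 9077 in shBrit1 cells and from 1728 to 1885 in shControl cells. The shBrit1 sum was mostly DCN, named above, with a mean of 12.61 log2 in shBrit1 cells and 6.78 in shControl cells. POSTN was next in shBrit1 cells, at 9.99. The lower marker was FAP, the brightest of the list in shControl cells (limma, log2 -0.55, adjusted p = 0.002349). LUM, PDGFRA, PDGFRB and THY1 were undetected on every array. Of the 8 macrophage markers 3 were higher of 4 tested (CD14, CD68 and CSF1R), with sums of 2373 to 2867 in shBrit1 cells and 808 to 840 in shControl cells. FCER1G, also tested, was not called (limma, adjusted p = 0.1644). AIF1 was undetected on every array, while PTPRC, read over its 3 probes, was undetected on the shBrit1 arrays and detected on 2 shControl arrays. LYZ was likewise detected on 2 shControl arrays and no shBrit1 array. Of the 6 neutrophil markers both tested were higher (sums 197 to 207 in shBrit1 cells and 176 to 183 in shControl cells), with CSF3R, MPO and CXCR2 undetected on every array. These values lay near background. FCGR3B had means of 5.59 log2 in shBrit1 cells and 5.22 in shControl cells. S100A12 had 5.26 and 4.93 and was undetected on every shControl array. It passed the detection filter only through shBrit1 (adjusted p = 0.01192 when fitted by limma without that filter). Of the 5 endothelial markers 0 of the 3 tested were called, and VWF and CDH5 were undetected. The mammary epithelial markers were higher for 1 and lower for 3 of 8, with sums of 29835 to 32621 in shBrit1 cells and 37733 to 63237 in shControl cells. The 63237 was shControl replicate 3, the other 2 controls reached 38071, and without that array 1 marker was higher and 4 were lower. Their part in the results was not tested.

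The genes whose pattern over the 7 arrays was most like that of MMP7 and of MMP10 were found by the root mean square difference of mean-centred log2 signals, among 12324 genes. For MMP7 the nearest was SERPINA5, a serpin, at 0.17 log2, and HSD11B2, a steroid-converting enzyme, was also among the 3 nearest, at 0.26 log2. For MMP10 they were KRT14, a basal keratin, at 0.13 log2, CDH11, a cadherin, at 0.20 log2, and PLAU, urokinase, at 0.21 log2. These 3 genes shared the high signal on shControl replicate 3, by 1.70 log2 for KRT14, 2.32 log2 for CDH11 and 1.87 log2 for PLAU above the other 2 controls. MMP10 was undetected on the 4 shBrit1 arrays, so its likeness there is one of background signals, and the order of its nearest genes is uncertain. The likeness is a description over arrays that share the same 2 groups.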

How the data were processed

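MCF-10A cells with a Brit1 or a scrambled hairpin were compared on 4 and 3 arrays, grouped by their titles. The deposited table holds a linear intensity per probe and array with its detection p-value, per the file headers. The medians of the deposited intensity values ran from 75.9 to 87.6, which shows that arrays had not been normalized to each other. That deposited p-value moves in steps of 1 over 1374 negative controls. The authors' deposited log2 values had 1 median (6.37) on every array and were used as an alternative only. The software that read the arrays was not given in the sources used here. Between 16537 and 17343 probes were detected on an array, and the number of arrays limits the precision.

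Signals were background-corrected and normalized with neqc of limma 3.58.1 in R 4.3.3 (offset 16, quantile, log2). Of 48701 probes, 17967 with detection p-values under 0.05 on at least 3 arrays were compared with lmFit and eBayes (two-sided, Benjamini-Hochberg over all of them). The fit was tested on simulated data. Each gene was read from its tested probe with the highest mean. Bounds use, for each array of the undetected group, the higher of the lowest detected signal and the probe's own. Probe names came from the platform annotation (24782 probes with 1 symbol, 0 with several, 23919 with none), and its gene identifiers changed 0 names against RefSeq.

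Named were all members, up to 4 genes of each list with the smallest p-value, and the 3 genes nearest in pattern to the called members with the largest positive and the largest negative log2 difference, of which 1 is not reported here. Members and lists were chosen with earlier results of these data known. Cytokines and markers named for their level on 1 array, or as undetected, were picked after their values were seen. So were the AP-1 subunits given beside FOSL1. Alternatives covered background correction, scaling, filter, array weights, a replicate block and each array left out.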

Additional observations from a re-analysis of the deposited data

Results flagged for a closer look

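In groups of 4 arrays a single array can stand far from the others, and 42 probes of the members and of the pathway genes named were looked at in shBrit1 cells, where chance marks about 1 in 20 groups. MMP2 had 5.33 log2 on shBrit1 replicate 3, against 4.96 to 4.99 on the other 3 shBrit1 arrays, and this was the only array on which it was detected. MMP3 had 4.82 log2 on the same array, against 4.70 to 4.71 on the others, and was undetected on all 4. ADAMTS6 had 5.14 log2 on shBrit1 replicate 2, against 4.94 to 4.95 on the others, and was detected on 1 of the 4. The shControl group of 3 arrays is too small for this check.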

How the results depend on the processing

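MMP7 and TIMP2 were higher and called in shBrit1 cells under every alternative that was run, with log2 differences of 4.05 to 4.68 and 1.41 to 2.01, and MMP10 was lower and called under all 17 that gave a value, at -2.23 to -1.20. The number of members called lower was 1 with no background correction, cyclic loess, the authors' log2 values, no filter on dim probes, or eBayes with trend, and 0 when detection on all 7 arrays was required, a filter that removes MMP1, MMP9 and MMP10 and so gives them no value. Over arrays left out in turn that number ran from 1 to 3. MMP1 kept its direction but not its call with no background correction (-1.13), cyclic loess (-1.68), the authors' log2 values (-1.14), no filter (-1.70) and eBayes with trend (-1.70), and ran from -2.28 to -0.71 with arrays left out in turn. MMP9 passed the test with array weights (-0.66), with shControl replicates 1 and 2 averaged (-2.30) and without each shControl array, over a range of -2.32 to -0.58. MMP14 turned to 0.25 with array weights, and ran from -0.31 to 0.28 with arrays left out. TIMP1 passed under median scaling (-0.33). The pathway genes called higher numbered 10 under median scaling and ran from 13 to 23 with arrays left out, the 13 being without shBrit1 replicate 4. The cause of these moves was not tested. Deviations of arrays with the same replicate number correlated at r = 0.10, -0.02 and 0.09 over probes, against -0.09 to 0.03 for different numbers. Whether the numbers pair the arrays cannot be settled from values this small. With the replicate block, in which shBrit1 replicate 4 has no partner and adds nothing, 1 member was called lower and MMP1 had a log2 difference of -1.74 (adjusted p = 0.05098).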

Other observations

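Lipocalin LCN2, which binds MMP9 and protects it from breakdown, was singled out after its values were seen. It had 12.74, 12.63, 12.77 and 12.68 log2 on the shBrit1 arrays, against 8.65, 8.77 and 11.77 on the shControl arrays. It was 7.87-fold higher in shBrit1 cells (limma, log2 2.98, adjusted p = 0.0042), and by 4.00 log2 without shControl replicate 3. On that array LCN2 lay 3.06 log2 above the other 2 controls, toward the shBrit1 level, while MMP1, MMP9 and MMP10 moved away from it. A second probe of MMP28 had 8.51, 8.62, 8.52 and 8.39 log2 on the shBrit1 arrays, against 6.87, 7.03 and 8.73 on the shControl arrays, and did not pass the test with all arrays (log2 0.97, adjusted p = 0.0627). Without shControl replicate 3 it did (log2 1.56, 2.94-fold, adjusted p = 9.63e-08), as the other MMP28 probe did in both fits.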
